A study of Mus musculus with 80 samples.

Results

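The comparison described here set the tibialis anterior (TA) muscle of R6/2 mice given the decoy receptor ACVR2B/Fc against the TA of wild type (WT) mice given vehicle, and asked what remains abnormal, and what becomes abnormal, in treated R6/2 muscle. It took 20 of the 80 libraries of the series, 10 from each group, and was made across 19702 expressed genes out of 39179 in the deposited table of estimated counts. The R6/2 mice (genotype R6/2 CAG200 in the labels) are hemizygous for a transgene that holds the start of the human huntingtin gene with an expanded CAG repeat, so they model a fragment of the disease protein and not the full-length one. ACVR2B/Fc, called ActRIIB decoy in the labels, is the ligand-binding part of the activin receptor type IIB joined to an antibody Fc region, and was injected once a week. All the mice were female, on the C57BL6xCBA background and 12 weeks old. R6/2 mice given vehicle (10 TA libraries) were used to divide the genes by what treatment did, and quadriceps libraries of the same mice (10 treated R6/2 and 9 WT vehicle) to compare the muscles. Each library came from a whole muscle of 1 mouse, so the p-values measure the spread between mice, and fewer cells of a type cannot be told apart from less RNA per cell.

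Skeletal muscle is made of multinucleate fibres, and the TA of the mouse is a fast muscle in which most fibres contract quickly and burn glucose through glycolysis. Myostatin and the activins bind the activin type II receptors on the fibre and signal through SMAD2 and SMAD3, which limits muscle mass. Bone morphogenetic proteins (BMPs) signal through SMAD1, SMAD5 and SMAD9. A decoy of the receptor catches the ligands before they reach the fibre. R6/2 mice lose muscle mass, and their fibres are known to change the genes of contraction, energy supply and nerve contact.

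Levels are given as CPM, the counts of a gene relative to a fixed number of counts in the library, after scaling by the trimmed mean of M values (TMM), and differences as log2 fold changes with their standard error (SE). The edgeR quasi-likelihood test gave the p-values, which were adjusted by Benjamini-Hochberg over all tested genes, and genes with an adjusted p under 0.05 were called. Library totals were 39685222 to 50249249 estimated counts in treated R6/2 TA, 37965988 to 48267193 in R6/2 vehicle TA and 38442798 to 44454442 in WT vehicle TA. Transcripts of another tissue were seen in 7 of the 20 libraries, termed mixed libraries here. In treated R6/2 TA, 1 held hair and skin transcripts, 1 pituitary and 2 liver transcripts. In WT vehicle TA, 2 held pituitary and 1 held liver transcripts. Of the other TA libraries in the fit, 1 of R6/2 vehicle and 1 of WT given ACVR2B/Fc also held liver transcripts. Where leaving out the mixed libraries ended or made the call of a named gene against WT, its value without them is also given. For the test between treated and untreated R6/2 TA, calls of single genes without the mixed libraries are not given.

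The labels were checked first. Gm12695 (chr4:96723647-96785186, GRCm38), a predicted gene at the insertion site of the R6/2 transgene, summed to 859 counts over the 10 treated R6/2 TA libraries and to 1 count over the 10 WT vehicle TA libraries. The ratio was 808 (95% counting interval 145 to 31952). In single libraries it ran from 1.30 to 2.08 CPM (median 1.59) in treated R6/2 TA and reached 0.0264 CPM in WT vehicle TA, and every library fell on the side of its label. Mouse Htt, the normal huntingtin gene, was at 15.7 to 23.6 CPM (median 21.5) in treated R6/2 TA and at 14.9 to 20.7 CPM (median 18.4) in WT vehicle TA. That difference was small (log2 fold change 0.20, SE 0.07, adjusted p = 0.0213), and without the mixed libraries it was not called (log2 fold change 0.16, adjusted p = 0.182).

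In all, 8132 of 19702 genes (41.3%) were called. Of these, 4300 (21.8% of tested genes) were higher and 3832 (19.4%) lower in treated R6/2 TA. At more than 1.5-fold there were 1875 higher and 1639 lower genes, and at more than 2-fold 1010 higher and 791 lower. Without the mixed libraries, 6874 genes were called. For 936 genes (4.75%) every treated R6/2 library lay above every WT vehicle library, and for 913 (4.63%) every one lay below. The direction of small changes depended on the scale. On the deposited FPKM, which are not scaled between libraries beyond their totals, limma on log2(FPKM + 1) called 11638 genes, of which 92.8% were higher in treated R6/2 TA, against 52.9% of the calls on TMM-scaled counts. On that FPKM scale 10801 of the 19702 tested genes were higher and 837 lower, and FPKM counts of lists stand beside these. On TMM-scaled counts the lists stand beside 21.8% of tested genes higher and 19.4% lower. The median of all genes was 0.18 on that FPKM scale and -0.00 on the count scale. With TMM factors applied to the FPKM, an alternative chosen after the data were seen, 7975 genes were called, of which 52.8% were higher. The 10 most abundant genes took 29.99% ± 2.52 of all counts in treated R6/2 TA and 33.86% ± 2.0 in WT vehicle TA (SD, n = 10 each).

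**Figure D1:**
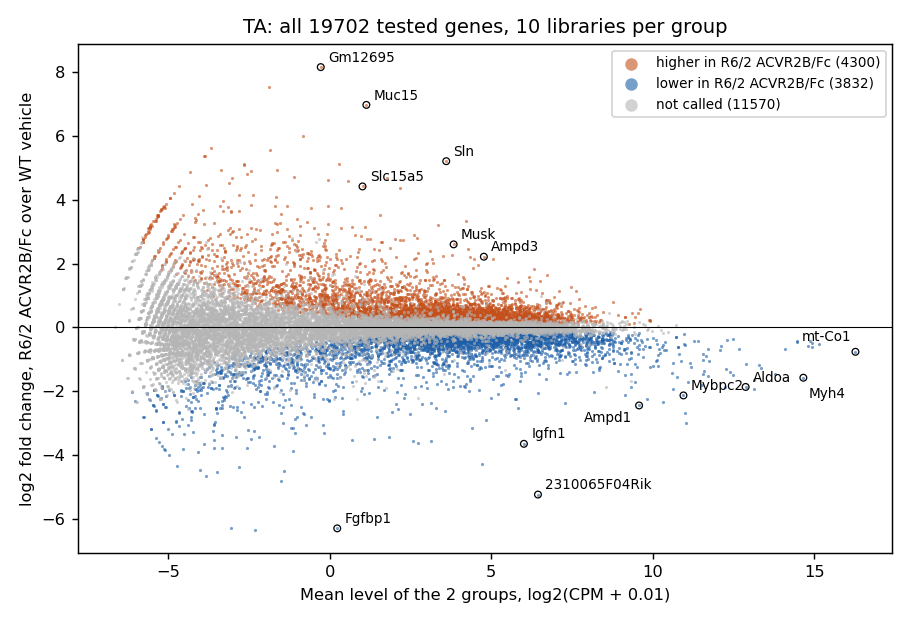
Log2 fold change of each of 19702 genes (vertical axis, treated R6/2 TA over WT vehicle TA) against its mean level in both groups (horizontal axis, log2 of CPM plus 0.01). Orange points are the 4300 genes called higher, blue points the 3832 called lower and grey points the rest, and the abundant genes on the right, such as Myh4, Aldoa and mt-Co1, lie below 0.

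Among the genes with at least 1 CPM in a group, those that were lowest against WT included several of the nerve contact and the fibre itself. Fgfbp1, which in mouse muscle carries fibroblast growth factors and helps to maintain the neuromuscular junction, summed to 14 counts in treated R6/2 TA and 800 counts in WT vehicle TA. WT vehicle TA was 60.7-fold higher by these sums (95% counting interval 36.0 to 111.6). 2310065F04Rik (chr11:67112461-67120080), an RNA gene close to the fast myosin heavy chain genes, ran from 3.17 to 6.93 CPM (median 4.15) in treated R6/2 TA and from 126 to 222 CPM (median 167) in WT vehicle TA. It fell by 5.24 on the log2 scale (SE 0.17, adjusted p = 1.95e-25), and no library of either group came near the other group. Igfn1, an immunoglobulin-like protein of the Z-disc, was at 1.63 to 18.5 CPM (median 8.09) in treated R6/2 TA, at 8.61 to 50.2 CPM (median 35.7) in R6/2 vehicle TA and at 43.3 to 229.6 CPM (median 106) in WT vehicle TA. Its difference from WT was -3.65 under treatment and -1.85 without it on the log2 scale, and the treated R6/2 group did not overlap WT.

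Others shared no single role. The metalloprotease gene Adamts8 (log2 fold change -3.63, SE 0.32, adjusted p = 3.16e-12) ran from 0.216 to 1.55 CPM (median 1.16) in treated R6/2 TA and from 6.94 to 18.8 CPM (median 13.6) in WT vehicle TA. Cacna2d4, an auxiliary calcium channel subunit, had a log2 fold change of -3.55, Dkk3, of the Dickkopf family of secreted proteins, one of -3.54, and Myl10, a myosin light chain, one of -3.53. Prima1, which anchors acetylcholinesterase to membranes, had a log2 fold change of -3.32. Fam57b, a membrane protein of lipid metabolism, fell by 3.15 on the log2 scale (SE 0.16), and it was 0.61 higher in treated than in untreated R6/2 TA. For all of these genes the treated R6/2 and WT vehicle libraries did not overlap. Prl, pituitary prolactin, also met the criterion, but its signal came from the libraries with pituitary transcripts, and without the mixed libraries it was not called (log2 fold change -1.39, adjusted p = 0.509).

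At the other end, Sln, the sarcolipin gene whose product slows the calcium pump of the sarcoplasmic reticulum, ran from 8.24 to 52.6 CPM (median 19.4) in treated R6/2 TA. It was at 3.28 to 35.0 CPM (median 9.52) in R6/2 vehicle TA and at 0.425 to 1.08 CPM (median 0.608) in WT vehicle TA. The difference from WT was 5.21 (SE 0.39, adjusted p = 4.43e-14), and every treated R6/2 library was above the highest WT library. Muc15, a membrane mucin, summed to 2279 counts in treated R6/2 TA and 11 counts in WT vehicle TA, a ratio of 195 (95% counting interval 109 to 391). BC035947, an unnamed transcript, summed to 564 counts against 5 counts, a ratio of 106 (45.2 to 328).

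Slc15a5, a member of a family of peptide transporters (chr6:137983586-138079916), was at 2.08 to 7.11 CPM (median 3.30) in treated R6/2 TA, 0.106 to 0.838 CPM (median 0.531) in R6/2 vehicle TA and 0 to 0.343 CPM (median 0.186) in WT vehicle TA. Its log2 fold change was 4.42 under treatment and 1.48 without it, and the treated R6/2 group overlapped neither of the others. The non-coding gene A930003A15Rik (log2 fold change 4.67, SE 0.31, adjusted p = 9.61e-16), Gm830 (4.58 on the log2 scale), Ddc, which makes dopamine and serotonin (4.38), and Rab9b, a small GTPase of vesicle traffic (3.74), were also above WT in every treated R6/2 library. Tchh and Gm20659 met the criterion as well, but each rested mostly on 1 treated R6/2 library and overlapped WT. Tchh, a hair follicle protein, had 1073 of its 1164 treated R6/2 counts in the library with hair and skin transcripts, and without the mixed libraries it was not called (log2 fold change 1.43, adjusted p = 0.0914). Gm20659 had 739 of its 1032 treated R6/2 counts in treated R6/2 replicate 10, in which no transcripts of another tissue were seen, and it was still called without those libraries (log2 fold change 5.53, adjusted p = 0.00243).

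R6/2 vehicle TA told which of these differences were there without treatment. In that comparison 7817 genes (39.7%) were called against WT vehicle TA. Both comparisons share the 10 WT vehicle libraries, so they are not independent. The same sign was called in both for 6330 genes (32.1%), 3415 higher and 2915 lower. Of these, 6167 did not pass the test between treated and untreated R6/2 TA, which called 430 genes (2.18%) in all, 230 higher (1.17%) and 200 lower (1.02%) under treatment. A gene was said to become different where it was not called without treatment, passed the test between treated and untreated R6/2 TA and was called under treatment with that sign. There were 138 such genes (0.7%), 80 higher and 58 lower than in WT. Treatment moved 167 genes (0.848%) back toward WT, that is, in the direction opposite to their difference without treatment. Of these 167, 63 remained different with the same sign, 100 were no longer called and 4 were called on the other side. A gene in this class did not have to end nearer to WT than it began. Treatment moved 100 genes (0.508%) further from WT, 51 higher and 49 lower. The test between treated and untreated R6/2 TA also shares libraries with both comparisons against WT. A deviation of the R6/2 vehicle libraries by chance favours both calls that make a gene moved back. The same holds for the treated libraries and a gene that became different. In all, 1798 genes were called only under treatment and 1483 only without it, but apart from the 138 that became different and the 100 that were moved back and no longer called, these did not pass the test between treated and untreated R6/2 TA and were not taken as moved.

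**Figure D2:**
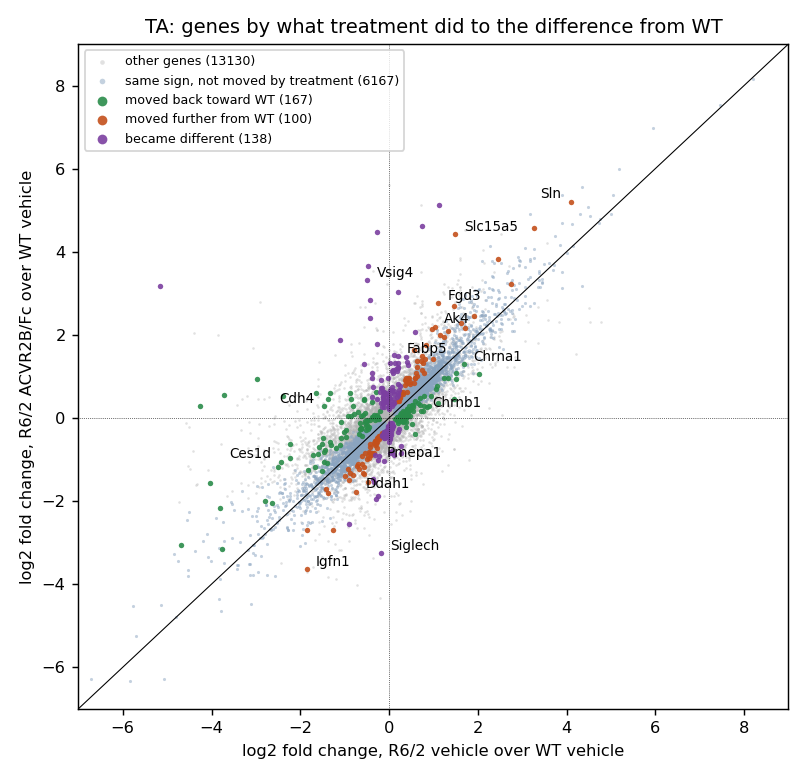
Log2 fold change of each gene in treated R6/2 TA over WT vehicle TA (vertical axis) against R6/2 vehicle TA over WT vehicle TA (horizontal axis), with the line of equal change. Both axes share the WT vehicle libraries, 4 genes lie outside the axes, and the 167 genes moved back (green), 100 moved further (orange) and 138 that became different (purple) are a small part beside the 6167 that kept their sign and were not moved (pale blue).

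The contractile genes of fast fibres were lower under treatment, with or without the mixed libraries. Of 16 listed genes, 14 fell and none rose, with a median log2 fold change of -1.35 against -0.00 for all tested genes. In R6/2 vehicle TA 15 were called lower, 1 was called higher and the median was -1.49. For 14 of the 16, every treated R6/2 library was below every WT library, against 4.63% of all tested genes. On the FPKM scale 14 were still called lower. Myh4, the heavy chain of the fastest fibres, ran from 11518 to 15545 CPM (median 12903) in treated R6/2 TA, from 6993 to 15376 CPM (median 10162) in R6/2 vehicle TA and from 30497 to 44832 CPM (median 39616) in WT vehicle TA (log2 fold change -1.58, SE 0.10, adjusted p = 3.10e-16 for treated R6/2 against WT). The myosin binding protein gene Mybpc2 and the myosin light chain kinase gene Mylk2 were lower still. Mybpc2 was at 477 to 979 CPM (median 741) in treated R6/2 TA and 2610.0 to 3908 CPM (median 3255) in WT vehicle TA, a log2 fold change of -2.13 (SE 0.13). Mylk2 was at 152 to 317 CPM (median 187) and 737 to 1041 CPM (median 905) in the same groups, a log2 fold change of -2.11 (SE 0.13). Tpm1, a tropomyosin of the thin filament, had a log2 fold change of -1.64.

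A single gene of the list moved with treatment. Tnnt3, the fast troponin T, was at 4595 to 7442 CPM (median 6119.8) in treated R6/2 TA, 4641 to 6051 CPM (median 5225) in R6/2 vehicle TA and 13530.3 to 15829 CPM (median 14735) in WT vehicle TA. It was 0.23 higher than without treatment (SE 0.06, adjusted p = 0.0306) and still -1.29 from WT, and no treated R6/2 library reached the lowest WT library. The 2 listed genes that were not called, chosen here after their values were seen, were Mybph (-0.45, adjusted p = 0.163) and Smtnl1 (0.32, adjusted p = 0.172). Of 14 genes of slow fibres, 6 fell and 1 rose on counts, beside 19.4% lower and 21.8% higher of all tested genes. On the FPKM scale 3 were called lower and 2 higher. Those that fell included Myl3, a light chain of slow and cardiac fibres, at 1.21 to 44.9 CPM (median 16.1) in treated R6/2 TA and 50.8 to 146 CPM (median 81.5) in WT vehicle TA, and the myosin binding protein gene Mybpc1 (-0.83).

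Calcium release, calcium storage and membrane excitability were also lower on the count scale. Of 25 genes of calcium release and storage, 19 fell and 3 rose, beside 19.4% lower and 21.8% higher of all tested genes. The median of the list was -0.41 on the log2 scale, and -0.42 in R6/2 vehicle TA. On the FPKM scale, however, 10 were called higher and 10 lower. Pvalb, parvalbumin, which buffers calcium in fast fibres, was at 1534 to 3132 CPM (median 1965) in treated R6/2 TA and 6938 to 9438 CPM (median 7549.6) in WT vehicle TA (log2 fold change -1.86, SE 0.11, adjusted p = 2.10e-17). Casq1, the calcium store protein of fast fibres (-1.54), Atp2a1, the calcium pump (-1.45), and Cacna1s, a calcium channel that senses voltage (-1.23), were likewise below WT in every treated R6/2 library. The 3 that rose were Sln, Fkbp1a (0.21), which binds the release channel, and Casq2, the store protein of slow and cardiac muscle, at 103.5 to 193 CPM (median 163) in treated R6/2 TA and 24.7 to 71.9 CPM (median 56.7) in WT vehicle TA (log2 fold change 1.63, SE 0.20, adjusted p = 1.50e-08). Casq2 and Fkbp1a were named after their values were seen.

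Treatment moved 2 genes of this list, both further from WT. One was Sln. The other, Cacng1, a subunit of the voltage sensor, was at 60.8 to 91.4 CPM (median 76.4) in treated R6/2 TA, 92.2 to 122.1 CPM (median 106.99) in R6/2 vehicle TA and 128.9 to 157 CPM (median 144) in WT vehicle TA, with no overlap between treated R6/2 and either group. Of 17 channels and pumps of the fibre membrane, 12 fell and 2 rose (median -0.50), beside 19.4% lower and 21.8% higher of all tested genes. None of the 17 passed the test between treated and untreated R6/2 TA. On the FPKM scale 6 were called lower and 4 higher. The potassium channel gene Kcnc1 fell to 23.4 to 47.7 CPM (median 32.7) in treated R6/2 TA, against 120.1 to 173 CPM (median 140.4) in WT vehicle TA (log2 fold change -2.04, SE 0.12). Abcc8, the sulphonylurea receptor of a channel that senses ATP, had a log2 fold change of -2.63. One of the genes that rose was Kcnn3 (0.84), a calcium-gated potassium channel, named after its values were seen. Kcnn3 was not called without the mixed libraries (log2 fold change 0.64, adjusted p = 0.0603), where 11 genes of the list fell and 1 rose.

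Glycolysis and glycogen genes were lower almost without exception. Of 29 genes, 28 fell and none rose, with a median of -0.98 against -0.95 in R6/2 vehicle TA. In 20 of them every treated R6/2 library was below every WT library, against 4.63% of all tested genes. The FPKM scale called 18 of them lower and 2 higher. Aldoa, the muscle aldolase, was at 2322 to 4280.0 CPM (median 3250.2) in treated R6/2 TA and 9146 to 14388 CPM (median 11489) in WT vehicle TA (log2 fold change -1.86, SE 0.11, adjusted p = 3.12e-17). Pgam2, muscle phosphoglycerate mutase (-1.72), Eno3, muscle enolase (-1.38), and Pgm1, which links glycogen to glycolysis (-1.46), showed the same separation. Pfkm, the muscle phosphofructokinase and a control point of the pathway, was at 819.8 to 1336 CPM (median 981) in treated R6/2 TA, 1126 to 1450.0 CPM (median 1221) in R6/2 vehicle TA and 2939 to 3984 CPM (median 3313) in WT vehicle TA. It was -1.70 from WT under treatment and -1.42 without it, and passed the test between treated and untreated R6/2 TA (log2 fold change -0.28, adjusted p = 0.0478). The other gene that treatment lowered was Gys1, glycogen synthase (-0.32, adjusted p = 0.0457), and the gene that was not called was Pgm2 (0.11, adjusted p = 0.603), both named after their values were seen. Gys1 was -0.41 from WT on counts and 0.10 on log2(FPKM + 1).

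The enzymes that keep the balance of ATP and its breakdown products went both ways. Of 17 genes for creatine and adenine nucleotide enzymes, 8 fell and 2 rose on counts, beside 19.4% lower and 21.8% higher of all tested genes. On the FPKM scale 6 were called lower and 7 higher, beside 837 lower and 10801 higher of all 19702 tested genes. Ampd1, the muscle AMP deaminase, fell to 157 to 348 CPM (median 218) in treated R6/2 TA, against 1185 to 1411 CPM (median 1296) in WT vehicle TA (log2 fold change -2.44, SE 0.11, adjusted p = 2.94e-20). Ampd3, the deaminase of red blood cells and other tissues, was at 32.3 to 61.1 CPM (median 43.7) in treated R6/2 TA and 7.92 to 11.8 CPM (median 9.53) in WT vehicle TA (log2 fold change 2.22, SE 0.16, adjusted p = 1.11e-14). The pair of isoforms thus moved in opposite directions, and neither passed the test between treated and untreated R6/2 TA. Ckm, the muscle creatine kinase (-1.51), and Adsl, of purine synthesis (-0.87), were lower. Ak4, an adenylate kinase of the mitochondrial matrix, was at 27.2 to 39.5 CPM (median 33.2) in treated R6/2 TA, 11.7 to 17.6 CPM (median 14.96) in R6/2 vehicle TA and 4.43 to 11.6 CPM (median 6.99) in WT vehicle TA. Its difference from WT was 2.20 with treatment and 1.03 without it, and the difference between treated and untreated R6/2 TA was 1.17 (SE 0.14, adjusted p = 2.31e-06). The treated libraries overlapped neither other group.

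Mitochondrial genes were lower by smaller amounts, and their direction depended on the scale. Of 72 respiratory chain and ATP synthase genes, 66 fell and none rose on counts (median -0.46, and -0.42 in R6/2 vehicle TA), whereas on log2(FPKM + 1) 18 were called higher and 11 lower. With TMM factors applied to the FPKM, an alternative chosen after the data were seen, 65 were lower and none higher. In 37 of the 72 every treated R6/2 library was below every WT library, against 4.63% of all tested genes. None of the 72 passed the test between treated and untreated R6/2 TA.  Ndufs8, a subunit of complex I, was at 41.6 to 56.5 CPM (median 45.6) in treated R6/2 TA and 73.8 to 108.03 CPM (median 80.0) in WT vehicle TA (log2 fold change -0.81, SE 0.07, adjusted p = 4.16e-12), and Sdhb, of complex II, at 213 to 281 CPM (median 242) and 387 to 520.5 CPM (median 412) (log2 fold change -0.76, SE 0.07, adjusted p = 2.75e-12). Both kept groups that did not overlap. Citrate cycle genes fell in 16 of 18 cases on counts (median -0.43), and 6 were called higher and 3 lower on the FPKM scale. Without the mixed libraries 15 of the 18 fell and 1 rose. Idh3b, of isocitrate dehydrogenase (-0.88), and Cs, citrate synthase (-0.55), were among those that fell. All 13 mRNAs of the mitochondrial genome fell on counts (median -0.53, and -0.69 in R6/2 vehicle TA), and 2 were called lower and none higher on FPKM. Without the mixed libraries 9 of the 13 were called lower. mt-Co1, of complex IV, was at 47754 to 72456 CPM (median 59953) in treated R6/2 TA and 89403 to 114053 CPM (median 98501) in WT vehicle TA (log2 fold change -0.76, SE 0.07, adjusted p = 2.01e-11).

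**Figure D3:**
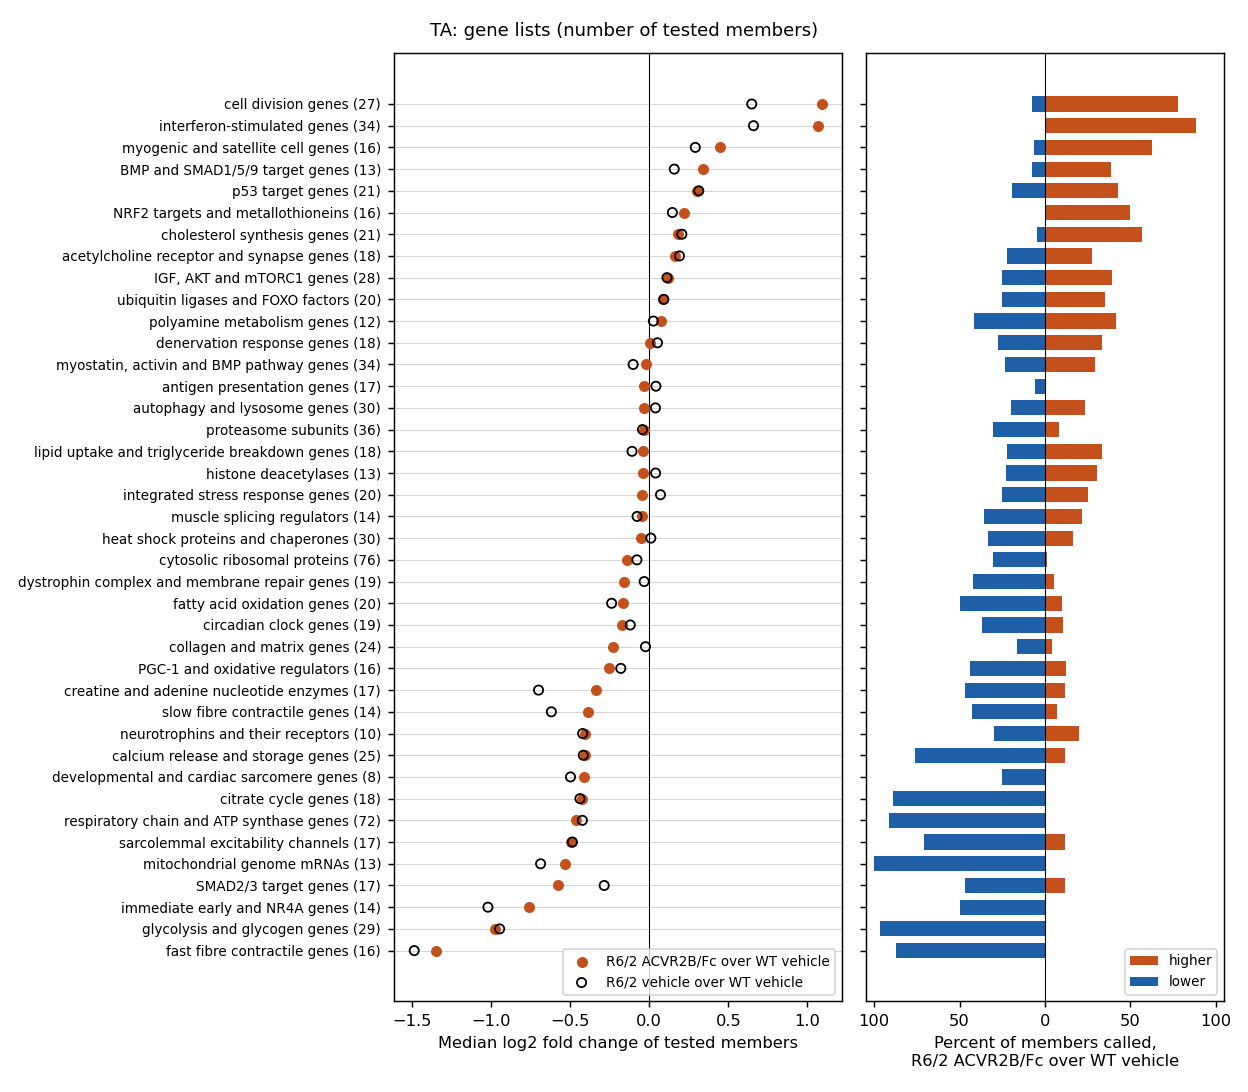
Left, median log2 fold change of the tested members of each gene list (number in brackets) in treated R6/2 TA over WT vehicle TA (filled) and R6/2 vehicle TA over WT vehicle TA (open). Right, percent of members called higher (orange) or lower (blue) in treated R6/2 TA, all on TMM-scaled counts, so that lists with small medians can change side on FPKM, as the respiratory chain list did (18 higher and 11 lower). The fast fibre list has the lowest median (-1.35) and cell division the highest (1.09).

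Genes of the acetylcholine receptor and the neuromuscular synapse, which fibres make in larger amounts when nerve activity is lost, were called in both directions. Of 18 genes, 5 rose and 4 fell in treated R6/2 TA, near the shares of all tested genes (21.8% higher and 19.4% lower), and 7 rose and 4 fell in R6/2 vehicle TA. On the FPKM scale 14 were called higher and none lower, beside 10801 higher and 837 lower of all 19702 tested genes. Treatment lowered 3 of them, all toward WT. Chrna1, the alpha subunit of the muscle receptor, was at 33.8 to 69.9 CPM (median 39.1) in treated R6/2 TA, 45.1 to 70.1 CPM (median 57.5) in R6/2 vehicle TA and 12.4 to 21.5 CPM (median 18.1) in WT vehicle TA. It remained 1.29 above WT (SE 0.11, adjusted p = 2.02e-12) and its lowest treated library was above the highest WT library. Lrp4, the muscle receptor for agrin, was at 24.7 to 33.7 CPM (median 26.5), 29.96 to 37.8 CPM (median 33.9) and 14.2 to 20.6 CPM (median 16.0) in the same 3 groups and also remained different (log2 fold change 0.77, SE 0.07, adjusted p = 3.02e-11). Chrnb1, the beta subunit, was at 35.7 to 66.1 CPM (median 45.2) in treated R6/2 TA, 54.3 to 94.8 CPM (median 65.9) in R6/2 vehicle TA and 37.2 to 47.3 CPM (median 41.4) in WT vehicle TA. Treated R6/2 and WT overlapped and were not called different (log2 fold change 0.18, 95% confidence interval -0.02 to 0.37, adjusted p = 0.15).

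Musk, the kinase that gathers the receptors, did not pass the test of treatment. It was at 14.8 to 36.8 CPM (median 23.2) in treated R6/2 TA, 18.6 to 42.8 CPM (median 27.3) in R6/2 vehicle TA and 3.18 to 5.71 CPM (median 3.98) in WT vehicle TA (log2 fold change 2.60, SE 0.17, adjusted p = 1.63e-15 for treated R6/2 against WT). Colq, the collagen tail of acetylcholinesterase, was 1.17 above WT, and Chrng, the fetal receptor subunit, 1.44. Chrng was at or below 0.378 CPM in every treated R6/2 library, and without the mixed libraries it was not called (log2 fold change 0.88, adjusted p = 0.337). Those that fell were Ache, acetylcholinesterase (log2 fold change -0.53, SE 0.13, adjusted p = 6.83e-04), Chrne, the adult receptor subunit (-0.60), and the small differences of Etv5 (-0.23) and Erbb3 (-0.27), both of which turned positive on the FPKM scale. Ache was -0.82 and Chrne -0.93 from WT without the mixed libraries, and Etv5 was then not called (adjusted p = 0.105). Chrng, Chrne, Etv5 and Erbb3 were named after their values were seen. Among 18 genes known to respond to denervation, 6 rose and 5 fell on counts, beside 21.8% and 19.4% of all tested genes. On the FPKM scale 9 were higher and 1 lower. The transcription factor gene Runx1 was at 6.50 to 15.6 CPM (median 11.7) in treated R6/2 TA and 1.61 to 2.85 CPM (median 2.16) in WT vehicle TA (log2 fold change 2.33, SE 0.23, adjusted p = 6.18e-11), Gadd45a, a stress-response gene, rose by 1.12 on the log2 scale, Arpp21 by 0.71 and Fbxo30, a ubiquitin ligase, by 0.54, whereas Fgfbp1 fell.

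The promoters of Chrna1 and Musk are shown because the muscle genes of the synapse are known to be switched by MYOD and myogenin at E-boxes. The motif searched was CAGCTG, the same on both strands. In RefSeq promoters of GRCm38.p6 (250 bases before to 50 after the start of a gene) it lay in 6 of the 13 genes of the synapse list that had one (46.2%) and in 19% of tested genes with a promoter. Chrna1 (chr2:73580289-73580588, minus strand) held it at -92 and -44 from the start and Musk (chr4:58285712-58286011, plus strand) at -68, in capitals here.
Chrna1: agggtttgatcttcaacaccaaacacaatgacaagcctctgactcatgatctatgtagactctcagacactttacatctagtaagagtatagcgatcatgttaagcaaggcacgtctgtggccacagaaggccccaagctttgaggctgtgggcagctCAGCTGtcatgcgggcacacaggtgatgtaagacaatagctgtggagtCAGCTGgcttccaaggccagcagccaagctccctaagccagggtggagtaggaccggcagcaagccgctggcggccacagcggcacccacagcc
Musk: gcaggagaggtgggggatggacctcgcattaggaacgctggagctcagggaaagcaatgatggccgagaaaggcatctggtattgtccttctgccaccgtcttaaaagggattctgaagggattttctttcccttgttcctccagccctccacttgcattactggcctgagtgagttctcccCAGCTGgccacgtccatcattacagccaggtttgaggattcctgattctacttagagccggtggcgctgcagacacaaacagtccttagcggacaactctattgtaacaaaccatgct
Chrna1 was moved toward WT by treatment and Musk did not pass that test. A match is only a description of the letters.

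**Figure D4:**
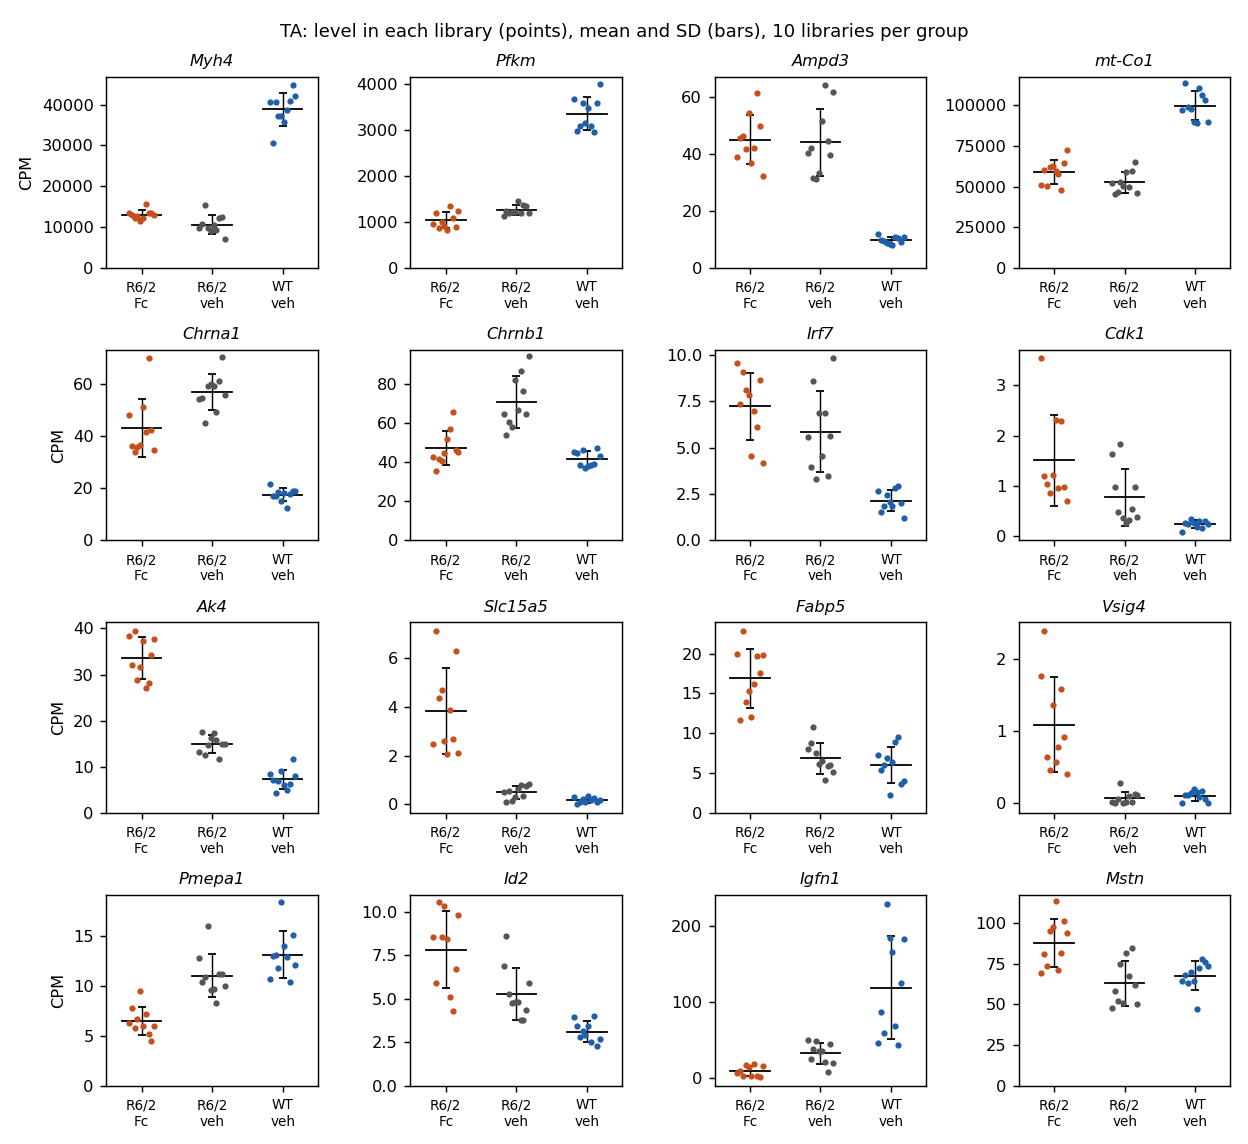
CPM of 16 genes in each TA library (points), with the mean and SD (bars) of 10 libraries per group. Treated R6/2 (left) is far from WT vehicle (right) for Myh4, Pfkm, Ampd3 and mt-Co1, close to it for Chrnb1, and apart from both other groups for Ak4, Slc15a5 and Vsig4.

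Interferon-stimulated genes, which cells switch on in response to viral RNA or to interferon itself, were higher. Of 34 genes, 30 rose and none fell, with a median of 1.07 on the log2 scale against 0.66 in R6/2 vehicle TA, where 28 rose. For 10 of them every treated R6/2 library lay above every WT library, against 4.75% of all tested genes. Without the mixed libraries 30 rose. All 34 were called higher on the FPKM scale, but so were 10801 of all 19702 tested genes. The levels were low. Irf7, a transcription factor of the interferon response, was at 4.15 to 9.53 CPM (median 7.57) in treated R6/2 TA, 3.33 to 9.83 CPM (median 5.58) in R6/2 vehicle TA and 1.23 to 2.95 CPM (median 2.04) in WT vehicle TA (log2 fold change 1.75, SE 0.19, adjusted p = 6.28e-10 for treated R6/2 against WT). Eif2ak2, the kinase PKR that stops translation when it meets double-stranded RNA, was at 13.5 to 20.8 CPM (median 16.3) in treated R6/2 TA and 5.84 to 8.995 CPM (median 7.53) in WT vehicle TA (log2 fold change 1.16, SE 0.09, adjusted p = 9.21e-14). Ifit1, which binds viral RNA, was at 4.90 to 9.99 CPM (median 7.38) and 1.11 to 4.83 CPM (median 2.53) (log2 fold change 1.56, SE 0.19, adjusted p = 1.03e-08). All 3 genes had groups that did not overlap. Ifi44 (1.71) and Cmpk2, a nucleotide kinase (1.46), were also above WT in every treated library.

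Between treated and untreated R6/2 TA only Usp18, which removes the ubiquitin-like tag ISG15, passed the test (log2 fold change 0.56, adjusted p = 0.0304). It was at 2.23 to 4.51 CPM (median 2.89) in treated R6/2 TA, 1.45 to 2.81 CPM (median 2.07) in R6/2 vehicle TA and 1.35 to 2.36 CPM (median 1.58) in WT vehicle TA. The 4 genes that were not called against WT included Irf1 (0.04), Gbp2 (0.13) and Gbp7 (0.50), which respond to interferon gamma. Usp18 and these 3 were named after their values were seen. Of 17 antigen presentation genes, none rose and 1 fell on counts, whereas 10 were higher and none lower on the FPKM scale. Lymphocyte markers summed to 0.066 to 1.48 CPM (median 0.432) in treated R6/2 TA and 0.132 to 1.01 CPM (median 0.266) in WT vehicle TA, with none of 6 called.

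The interferon-stimulated response element was searched on both strands as GAAA, any 2 bases and GAAA. It lay in the RefSeq promoter of 16 of the 24 genes of the list that had one (66.7%), against 3.92% of 13362 tested genes with a promoter and 3.44% of all 32851 promoters. Listed genes were searched whether or not they changed, so these shares do not bear on the change in level. Shown are Ifit1 with 2 matches at -104 and -85 (chr19:34640639-34640938, plus strand), Eif2ak2 with 1 match past its start at 19 (chr17:78882523-78882822, minus strand), and Irf7, which had the larger change but no match in this window (chr7:141266375-141266674, minus strand). Capitals mark a match or its reverse complement.
Ifit1: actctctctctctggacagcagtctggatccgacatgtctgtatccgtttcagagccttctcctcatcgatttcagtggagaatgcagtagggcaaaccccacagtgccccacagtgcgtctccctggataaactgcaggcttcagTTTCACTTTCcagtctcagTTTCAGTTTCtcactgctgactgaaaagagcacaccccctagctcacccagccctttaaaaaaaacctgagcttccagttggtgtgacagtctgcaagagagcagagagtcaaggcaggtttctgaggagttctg
Eif2ak2: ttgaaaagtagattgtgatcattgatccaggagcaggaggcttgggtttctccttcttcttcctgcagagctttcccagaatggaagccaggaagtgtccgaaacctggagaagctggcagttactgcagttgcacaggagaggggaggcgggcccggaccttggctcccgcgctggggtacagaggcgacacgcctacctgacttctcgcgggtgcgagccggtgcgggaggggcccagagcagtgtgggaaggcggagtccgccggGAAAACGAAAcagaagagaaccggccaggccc
Irf7: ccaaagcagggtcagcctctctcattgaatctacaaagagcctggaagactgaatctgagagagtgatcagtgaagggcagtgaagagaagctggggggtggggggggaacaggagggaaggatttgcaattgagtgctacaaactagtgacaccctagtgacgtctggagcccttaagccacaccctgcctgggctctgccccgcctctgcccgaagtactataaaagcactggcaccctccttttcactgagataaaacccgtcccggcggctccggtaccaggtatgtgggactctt
The absence of a match says only that these letters are not in these bases.

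Cell division genes were higher at very low levels. Of 27 genes, 21 rose and 2 fell (median 1.09, and 0.65 in R6/2 vehicle TA, where 18 rose and 2 fell). On the FPKM scale 25 were higher and 2 lower, beside 10801 higher and 837 lower of all 19702 tested genes. None of the 27 passed the test between treated and untreated R6/2 TA. Without the mixed libraries 17 rose. Cdk1, the kinase that starts mitosis, was at 0.691 to 3.53 CPM (median 1.13) in treated R6/2 TA, 0.259 to 1.84 CPM (median 0.510) in R6/2 vehicle TA and 0.0902 to 0.348 CPM (median 0.250) in WT vehicle TA (log2 fold change 2.64, SE 0.36, adjusted p = 9.92e-08 for treated R6/2 against WT). Birc5, survivin, was at 0.967 to 3.46 CPM (median 1.31) in treated R6/2 TA and 0.0574 to 0.422 CPM (median 0.161) in WT vehicle TA (log2 fold change 3.25, SE 0.33, adjusted p = 1.43e-10), and Aurkb, a mitotic kinase, summed to 382 counts in treated R6/2 TA and 28 counts in WT vehicle TA. The 3 genes had no overlap between these groups. Aurka, another mitotic kinase (-1.45), and Tk1, thymidine kinase (-0.92), fell, and they were the listed genes whose every treated library was below WT.

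The CCAAT box, which the factor NF-Y binds in many genes of mitosis, lay in the promoter of 19 of the 23 genes of the list that had one (82.6%), against 41.8% of tested genes and 37.4% of all promoters. Listed genes were searched whether or not they changed, so these shares do not bear on the change in level. Cdk1 (chr10:69352863-69353162, minus strand) held it at -208, -80 and -48, each time as its reverse complement, in capitals here.
Cdk1: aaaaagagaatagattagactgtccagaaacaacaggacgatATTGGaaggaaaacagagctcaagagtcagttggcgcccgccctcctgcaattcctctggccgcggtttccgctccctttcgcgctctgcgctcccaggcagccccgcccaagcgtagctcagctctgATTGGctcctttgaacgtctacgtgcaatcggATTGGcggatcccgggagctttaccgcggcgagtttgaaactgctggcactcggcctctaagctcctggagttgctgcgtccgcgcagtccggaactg
Of 16 genes of myogenic and satellite cells, 10 rose and 1 fell, beside 21.8% higher and 19.4% lower of all tested genes. The median of the list was 0.45, and 0.29 in R6/2 vehicle TA. Without the mixed libraries 9 rose and 3 fell. Pax7, the defining factor of satellite cells, was at 4.01 to 6.91 CPM (median 4.99) in treated R6/2 TA, 3.54 to 6.80 CPM (median 5.21) in R6/2 vehicle TA and 1.66 to 3.70 CPM (median 3.48) in WT vehicle TA (log2 fold change 0.69, SE 0.14, adjusted p = 1.08e-04 for treated R6/2 against WT). Mymk, the fusogen myomaker, was 2.91 above WT on the log2 scale, Megf10 1.11, Sdc4 0.88 and Myf5, an early myogenic factor, 0.84. Heyl, a target of Notch, was the one that fell (-0.79).

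Genes of the pathway that ACVR2B/Fc blocks were examined by role. Of 34 ligands, receptors, antagonists and SMADs, 10 rose and 8 fell in treated R6/2 TA, and 6 rose and 6 fell in R6/2 vehicle TA, near the shares of all tested genes (21.8% higher and 19.4% lower in treated R6/2 TA, and 21% and 18.6% in R6/2 vehicle TA). Without the mixed libraries 8 rose and 4 fell. On the FPKM scale 21 were called higher and 1 lower, beside 10801 higher and 837 lower of all 19702 tested genes. Among the ligands, Mstn, myostatin, was at 69.6 to 113.9 CPM (median 88.0) in treated R6/2 TA, 47.5 to 84.5 CPM (median 60.1) in R6/2 vehicle TA and 47.1 to 78.2 CPM (median 68.99) in WT vehicle TA. It was 0.48 higher with than without treatment (adjusted p = 0.0109) and 0.38 above WT (SE 0.11, adjusted p = 0.00505), though single libraries overlapped. Gdf11, a close relative of myostatin, was 0.45 above WT (adjusted p = 0.0207) and 0.73 above untreated R6/2 TA, but without the mixed libraries it was not called against WT (log2 fold change 0.29, adjusted p = 0.297). Tgfb3 was at 38.2 to 66.4 CPM (median 48.2) in treated R6/2 TA, 58.6 to 81.2 CPM (median 70.6) in R6/2 vehicle TA and 34.1 to 50.7 CPM (median 40.2) in WT vehicle TA, and was moved back while it remained different from WT (log2 fold change 0.28, SE 0.08, adjusted p = 0.00375).

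Of the receptors, Acvr2b, the receptor whose outer part is in the decoy, was at 0.944 to 2.66 CPM (median 1.96) in treated R6/2 TA and 1.70 to 3.33 CPM (median 2.36) in WT vehicle TA and was not called (log2 fold change -0.30, SE 0.13, adjusted p = 0.0603). The BMP receptor gene Bmpr1b was higher (log2 fold change 0.91, SE 0.13, adjusted p = 1.54e-07). Among antagonists, Fst, follistatin, which binds activins and myostatin, was lower at 0.806 to 2.54 CPM (median 1.4998) in treated R6/2 TA, against 1.91 to 3.87 CPM (median 2.84) in WT vehicle TA (log2 fold change -0.91, SE 0.19, adjusted p = 9.22e-05), and Nog, noggin, a BMP antagonist, was -0.70 from WT and 0.88 above untreated R6/2 TA. With the mixed libraries left out Nog was -0.39 from WT and not called (adjusted p = 0.25). Wfikkn2, which binds myostatin and GDF11, was -0.47 from WT on counts and 0.00 on log2(FPKM + 1). Of the SMADs, Smad3 was lower at 36.7 to 80.1 CPM (median 59.6) in treated R6/2 TA, 58.5 to 100.7 CPM (median 84.1) in R6/2 vehicle TA and 106 to 172 CPM (median 135) in WT vehicle TA, and was moved further from WT (log2 fold change -0.40 against untreated R6/2 TA, adjusted p = 0.0453). Smad2 rose by 0.60 on the log2 scale (SE 0.06). Gdf11 and Nog were named after their values were seen.

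Targets of the pathways gave a second view. Of 17 genes that SMAD2 and SMAD3 are known to raise, 2 rose and 8 fell in treated R6/2 TA on counts (median -0.58). Among all tested genes 21.8% rose and 19.4% fell. On the FPKM scale 5 were called higher and 2 lower, beside 10801 higher and 837 lower of all 19702 tested genes. In R6/2 vehicle TA 3 rose and 6 fell on counts (median -0.29), beside 21% and 18.6% of all tested genes. Pmepa1, a negative regulator made in answer to TGF-beta, was at 4.52 to 9.50 CPM (median 6.14) in treated R6/2 TA, 8.34 to 16.0 CPM (median 10.7) in R6/2 vehicle TA and 10.4 to 18.4 CPM (median 13.0) in WT vehicle TA. It became different under treatment (log2 fold change -1.02, SE 0.15, adjusted p = 2.77e-07), and every treated R6/2 library was below every WT library. Ltbp3, which holds latent TGF-beta in the matrix and was named after its values were seen, was the other that treatment lowered (log2 fold change -0.35, adjusted p = 0.00312), to a level not called different from WT on counts (-0.02, adjusted p = 0.869) and above it on the FPKM scale. Skil, a repressor of SMADs, fell by 0.59 on the log2 scale, while Ski rose by 0.30 and Lox, which crosslinks collagen, by 1.22.

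Of 13 BMP and SMAD1/5/9 targets, 5 rose and 1 fell on counts, beside 21.8% higher and 19.4% lower of all tested genes. The median of the list was 0.34, and 0.16 in R6/2 vehicle TA. On the FPKM scale 12 were higher and none lower, beside 10801 higher and 837 lower of all 19702 tested genes. With TMM factors on the FPKM 6 were higher and 1 lower, with a median of 0.06. On counts without the mixed libraries 4 rose and none fell. Treatment raised 3 of the 13 targets and lowered none, beside 1.17% raised and 1.02% lowered of all tested genes. Id2, an inhibitor of differentiation factors, was at 4.28 to 10.5 CPM (median 8.47) in treated R6/2 TA, 3.78 to 8.58 CPM (median 4.82) in R6/2 vehicle TA and 2.27 to 4.02 CPM (median 3.01) in WT vehicle TA (log2 fold change 1.33, SE 0.15, adjusted p = 9.87e-10 for treated R6/2 against WT). Smad9 was at 1.55 to 5.78 CPM (median 2.51) in treated R6/2 TA, 0.815 to 2.43 CPM (median 1.61) in R6/2 vehicle TA and 0.568 to 1.29 CPM (median 0.755) in WT vehicle TA (log2 fold change 1.75, SE 0.21, adjusted p = 6.41e-09). In both genes every treated library was above every WT library. Id1, named after its values were seen, was 0.75 higher than in untreated R6/2 TA (adjusted p = 0.0499) and not called against WT (log2 fold change 0.40, adjusted p = 0.134). Id3 was 0.52 above WT (adjusted p = 0.00407).

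Growth and breakdown genes were mixed. Across all tested genes 21.8% rose and 19.4% fell on counts. Of 28 genes of IGF, AKT and mTORC1 signalling, 11 rose and 7 fell on counts and 23 were higher and 2 lower on the FPKM scale, with Irs1, the insulin receptor substrate, lower (log2 fold change -1.11, SE 0.11, adjusted p = 1.41e-10) and Deptor, an mTOR inhibitor, higher (log2 fold change 0.81, SE 0.10, adjusted p = 6.56e-09). Pik3ca, a catalytic subunit of PI3-kinase, rose by 0.70. Of 20 ubiquitin ligases and FOXO factors, 7 rose and 5 fell, and 13 were higher and 1 lower on the FPKM scale. The ligases that define muscle atrophy were not called with all libraries, Trim63 (MuRF1) being at 88.2 to 193 CPM (median 128) in treated R6/2 TA and 120.6 to 220.3 CPM (median 154) in WT vehicle TA (adjusted p = 0.177) and Fbxo32 (atrogin-1) at 206 to 391 CPM (median 349) and 209 to 495 CPM (median 309) (adjusted p = 0.863). Both were named after their values were seen. Trim63 was called lower without the mixed libraries (log2 fold change -0.43, adjusted p = 0.0183). Asb2, a ligase of muscle, fell by 1.03 on the log2 scale and Traf6 rose by 0.51.

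Several smaller lists also held genes that stayed different. Across all tested genes 21.8% rose and 19.4% fell on counts. In polyamine metabolism, where 5 of 12 rose and 5 fell on counts and 6 were higher and 1 lower on the FPKM scale, Smox, spermine oxidase, was at 6.24 to 18.1 CPM (median 10.3) in treated R6/2 TA and 32.5 to 76.7 CPM (median 49.9) in WT vehicle TA (log2 fold change -2.22, SE 0.20, adjusted p = 2.71e-12), while Sat1, spermidine/spermine acetyltransferase, rose by 0.63. Of 16 NRF2 targets and metallothioneins, 8 rose and none fell, led by Nqo1, a quinone reductase (log2 fold change 1.10, SE 0.13, adjusted p = 2.28e-09), and Gclm, of glutathione synthesis (0.62). Without the mixed libraries 6 of the 16 rose and 1 fell. Of 30 heat shock proteins and chaperones, 5 rose and 10 fell on counts, against 20 higher and 4 lower on the FPKM scale, with Hspb6 (-1.49), Dnajb5 (-1.02) and the myosin chaperone gene Unc45b (-0.71) lower on counts. Cholesterol synthesis genes rose in 12 of 21 cases and fell in 1, including Insig1 (1.19) and Srebf2 (0.80), which regulate it, and 7 rose and 2 fell without the mixed libraries.

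Across all tested genes 21.8% rose and 19.4% fell on counts. Of 19 clock genes, 2 rose and 7 fell on counts and 8 were higher and 2 lower on the FPKM scale. Nr1d1, the clock repressor REV-ERB alpha, was at 29.7 to 57.6 CPM (median 45.2) in treated R6/2 TA and 74.8 to 128 CPM (median 101.03) in WT vehicle TA (log2 fold change -1.22, SE 0.12, adjusted p = 3.33e-11). Of 14 immediate early genes, 7 fell and none rose on counts (median -0.76, and -1.02 in R6/2 vehicle TA), whereas 3 were lower and 2 higher on the FPKM scale. Without the mixed libraries 7 of the 14 fell and 1 rose. Nr4a1, a nuclear receptor raised by activity, was at 27.1 to 78.3 CPM (median 45.6) in treated R6/2 TA and 61.3 to 248 CPM (median 99.7) in WT vehicle TA, with some overlap (log2 fold change -1.47, SE 0.23, adjusted p = 1.00e-06), and Nr4a2 fell by 2.00. Among 10 neurotrophins and receptors 2 rose and 3 fell on counts, near the shares of all tested genes. On the FPKM scale 3 were higher and 1 lower. Ngfr, the p75 receptor, rose by 1.58 and Gdnf, a factor that muscle gives to motor neurons, fell to 0.0220 to 0.542 CPM (median 0.1495) in treated R6/2 TA, against 0.488 to 1.05 CPM (median 0.812) in WT vehicle TA (log2 fold change -2.05, SE 0.31, adjusted p = 6.61e-07). Of 14 splicing regulators of muscle, 3 rose and 5 fell on counts and 7 were higher and 2 lower on the FPKM scale. Srpk3, a kinase of splicing factors, was at 10.1 to 19.8 CPM (median 14.7) in treated R6/2 TA, 15.4 to 25.6 CPM (median 20.7) in R6/2 vehicle TA and 24.6 to 33.3 CPM (median 27.7) in WT vehicle TA, and was moved further from WT (-0.44 against untreated R6/2 TA, adjusted p = 0.00835).

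The other lists showed smaller or mixed differences. Their counts stand beside 21.8% of all tested genes called higher and 19.4% called lower on counts. On the FPKM scale 10801 of the 19702 tested genes were higher and 837 lower. On counts 1 of 76 cytosolic ribosomal protein genes rose and 23 fell, whereas on the FPKM scale 56 were higher and none lower. Of 36 proteasome subunits 3 rose and 11 fell, against 34 higher and none lower on the FPKM scale, and of 30 autophagy and lysosome genes 7 rose and 6 fell, against 28 higher and none lower. Of 20 fatty acid oxidation genes 2 rose and 10 fell (11 higher and 1 lower on FPKM), and of 16 PGC-1 and oxidative regulators 2 rose and 7 fell (9 higher and 2 lower on FPKM). Of 19 dystrophin complex and membrane repair genes 1 rose and 8 fell (12 higher and 4 lower on FPKM), and of 24 collagen and matrix genes 1 rose and 4 fell (7 higher and none lower on FPKM). Of 21 p53 targets 9 rose and 4 fell (13 higher and 2 lower on FPKM). In 20 integrated stress response genes 5 rose and 5 fell, in 13 histone deacetylases 4 rose and 3 fell, in 18 genes of lipid uptake and triglyceride breakdown 6 rose and 4 fell and in 8 developmental and cardiac sarcomere genes none rose and 2 fell, all on counts. The first 3 of these 4 lists had 9, 10 and 11 members called higher and none, none and 2 lower on the FPKM scale, and the last 2 higher and 1 lower. Without the mixed libraries 2 genes of lipid uptake and triglyceride breakdown rose and 6 fell, 3 integrated stress response genes rose and 5 fell, and 1 ribosomal protein gene rose and 15 fell. In the same fit 9 fatty acid oxidation genes fell and none rose, 1 of the PGC-1 and oxidative regulators rose and 6 fell, 3 splicing regulators rose and 3 fell, and 1 clock gene rose and 6 fell.

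The genes that became different under treatment included Vsig4 and Siglech. Vsig4 (chrX:96247203-96293438), a complement receptor of resident macrophages, was at 0.415 to 2.39 CPM (median 0.855) in treated R6/2 TA, 0 to 0.282 CPM (median 0.0403) in R6/2 vehicle TA and 0 to 0.206 CPM (median 0.118) in WT vehicle TA (log2 fold change 3.32, SE 0.53, adjusted p = 1.82e-06 for treated R6/2 against WT). Its treated libraries overlapped neither other group. Siglech (chr7:55768178-55778925), a lectin of plasmacytoid dendritic cells and microglia, went the other way. It summed to 17 counts in treated R6/2 TA, 159 counts in R6/2 vehicle TA and 119 counts in WT vehicle TA. WT vehicle TA was 7.44-fold higher than treated R6/2 TA by these sums (95% counting interval 4.46 to 13.2), though single libraries overlapped. Vsig4 and Siglech are both in the list of 10 macrophage markers, of which 2 rose and 1 fell, beside 21.8% and 19.4% of all tested genes. The summed level of that list was 54.4 to 113.2 CPM (median 88.2) in treated R6/2 TA, 42.4 to 117 CPM (median 65.3) in R6/2 vehicle TA and 47.5 to 108.01 CPM (median 85.4) in WT vehicle TA.

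Fabp5 and Fabp4 carry fatty acids in cells and are made by capillary endothelium, macrophages and fat cells. Fabp5 was at 11.7 to 22.9 CPM (median 16.8) in treated R6/2 TA, 4.11 to 10.7 CPM (median 6.33) in R6/2 vehicle TA and 2.30 to 9.55 CPM (median 6.22) in WT vehicle TA (log2 fold change 1.48, SE 0.19, adjusted p = 2.22e-08), with no overlap between treated R6/2 and either group. Fabp4 was at 179 to 295 CPM (median 249.5), 136 to 215 CPM (median 167) and 123 to 202 CPM (median 176) in the same 3 groups (log2 fold change 0.52, SE 0.08, adjusted p = 9.55e-07), and these overlapped. Of 7 fat cell markers Fabp4 alone was called, and their sum was 189 to 297 CPM (median 260) in treated R6/2 TA, 146 to 223 CPM (median 177) in R6/2 vehicle TA and 136 to 212 CPM (median 189) in WT vehicle TA. Fabp4 made up most of these sums, with medians of 249.5, 167 and 176 CPM in the same order. The median log2 fold change of the 7 markers against WT was -0.25. Of 7 endothelial markers none rose and 2 fell, beside 21.8% and 19.4% of all tested genes. The part of these cells in the result was not tested.

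Other genes also became different. Tbx3, a T-box transcription factor, was 0.62 above WT and Epop 1.23, whereas Gm16534 (chr2:32050086-32064911) fell by 1.47 on the log2 scale and Igfbp3, which binds insulin-like growth factors, by 0.80. Igfbp3 was at 5.21 to 11.5 CPM (median 7.44) in treated R6/2 TA, 10.6 to 16.3 CPM (median 14.04) in R6/2 vehicle TA and 7.40 to 17.7 CPM (median 13.0) in WT vehicle TA, and the treated libraries overlapped both other groups. Sspn, sarcospan of the dystrophin complex, was at 90.9 to 118 CPM (median 96.2) in treated R6/2 TA, 111 to 126 CPM (median 119) in R6/2 vehicle TA and 106 to 127 CPM (median 118) in WT vehicle TA. It was -0.24 from WT on counts and 0.24 on log2(FPKM + 1), so that its side of WT depends on the scale.

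Among the genes moved back, 3 of the 4 that were called on the other side of WT had some of the smallest p-values in the test of treatment. Fxyd6, a small membrane protein of the FXYD family, was at 31.7 to 51.4 CPM (median 46.0) in treated R6/2 TA, 75.1 to 104.3 CPM (median 84.0) in R6/2 vehicle TA and 45.5 to 77.5 CPM (median 54.3) in WT vehicle TA. Treatment lowered it by 0.96 on the log2 scale (adjusted p = 7.56e-07), to -0.38 from WT on counts and 0.13 on log2(FPKM + 1). Ctla2a, a protease inhibitor, was at 10.6 to 17.9 CPM (median 15.3) in treated R6/2 TA, 5.21 to 9.38 CPM (median 8.16) in R6/2 vehicle TA and 6.06 to 14.1 CPM (median 9.61) in WT vehicle TA, and ended 0.61 above WT (adjusted p = 4.47e-05). Its difference from WT was -0.30 without treatment, so it ended further from WT than it began. Lingo3 was raised by 0.99 to 0.42 above WT (adjusted p = 0.00409), and without the mixed libraries it was 0.23 from WT and not called (adjusted p = 0.232).

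Other genes met WT or stopped short of it. Cdh4, R-cadherin, was at 3.90 to 8.22 CPM (median 7.12) in treated R6/2 TA, 1.11 to 3.35 CPM (median 1.54) in R6/2 vehicle TA and 1.77 to 9.99 CPM (median 5.56) in WT vehicle TA, and treated R6/2 was not called different from WT (0.28, 95% confidence interval -0.26 to 0.82). Ccng1, a p53 target, was 0.47 higher with treatment (adjusted p = 1.12e-04) and -0.08 from WT (95% confidence interval -0.23 to 0.07), and Atp8a1, a lipid flippase, 0.43 higher and -0.06 from WT (95% confidence interval -0.20 to 0.08). On log2(FPKM + 1) these last 2 genes were 0.42 and 0.41 above WT. Ces1d, a carboxylesterase that breaks down triglyceride, was at 7.76 to 16.6 CPM (median 12.1) in treated R6/2 TA, 2.36 to 7.97 CPM (median 4.49) in R6/2 vehicle TA and 16.8 to 42.7 CPM (median 24.9) in WT vehicle TA. It was raised by 1.38 and was still -1.06 from WT (adjusted p = 2.73e-05), with no overlap of treated R6/2 and WT. Enho, the gene of the peptide adropin, was raised by 0.89 and was still -0.63 from WT.

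Genes moved further from WT, beside Ak4, Slc15a5, Sln, Igfn1 and Cacng1, included enzymes and regulators. Ddah1, which degrades an inhibitor of nitric oxide synthase, was at 4.16 to 7.62 CPM (median 5.28) in treated R6/2 TA, 9.27 to 13.5 CPM (median 11.4) in R6/2 vehicle TA and 12.6 to 24.1 CPM (median 20.8) in WT vehicle TA. It was -1.78 from WT with treatment and -0.74 without it, and the treated libraries overlapped neither group. Zcchc24 was at 121.01 to 156 CPM (median 132), 93.8 to 121.8 CPM (median 106) and 66.5 to 82.3 CPM (median 76.0) in the same order (log2 fold change 0.82, SE 0.05, adjusted p = 4.27e-17 for treated R6/2 against WT). Rab13, a small GTPase of vesicle transport, was at 11.8 to 18.7 CPM (median 14.4) in treated R6/2 TA and 2.47 to 3.92 CPM (median 3.21) in WT vehicle TA (log2 fold change 2.16, SE 0.09, adjusted p = 2.92e-22). Fgd3, an exchange factor for CDC42, rose by 2.76 and Hpgd, which breaks down prostaglandins, by 1.64, while Alpl, alkaline phosphatase, fell by 1.32 and Gm11716 by 1.19 on the log2 scale.

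Markers of other cell types and of the fibre itself were summed in the same way. Across all tested genes 21.8% rose and 19.4% fell. All 6 fibre markers fell, and their sum was 22597 to 32564 CPM (median 27731) in treated R6/2 TA, 18833 to 31331 CPM (median 24122.0) in R6/2 vehicle TA and 71204 to 92037 CPM (median 80631) in WT vehicle TA. None was at 0, and treated R6/2 and WT did not overlap. Of 5 lymphatic markers 2 rose and 2 fell, of 5 tested erythroid markers 2 fell and of 6 tested granulocyte and marrow markers 1 fell. Of 5 fibroblast markers 3 fell, of 11 tendon and cartilage markers 1 rose and 3 fell, of 6 smooth muscle and pericyte markers 3 fell and of 7 Schwann cell markers none was called. The part of cell content in the results was not tested.

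The same comparison in the quadriceps called 8103 genes (41.1%). The difference between the muscles was tested directly on 19 mice with both libraries, with the mouse as a block, and called 298 genes (1.51%), 118 with a higher and 180 with a lower log2 fold change in TA. This count was 718 with DESeq2 and 34 without the block. Irf5, a transcription factor of macrophages and interferon signalling, had a log2 fold change of -2.37 in TA and -0.54 in quadriceps, a difference of -1.86 (95% confidence interval -2.24 to -1.47, adjusted p = 1.26e-05). Its mean was 2.84 ± 1.01 CPM in treated R6/2 TA and 14.7 ± 3.79 CPM in WT vehicle TA, while it was 2.66 ± 0.618 CPM in treated R6/2 quadriceps and 3.88 ± 1.04 CPM in WT vehicle quadriceps (SD, n = 10, and 9 for WT quadriceps). By these means the treated R6/2 muscles were closer to each other than the WT muscles were.

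Colq and B3galt2, a sugar transferase, were raised in TA and not called in quadriceps. For Colq the values were 1.17 and 0.09 (adjusted p = 0.619), and for B3galt2 they were 2.16 and 0.17 (adjusted p = 0.584). Raver2, an RNA-binding protein, took opposite signs on counts, at -0.30 in TA and 0.84 in quadriceps, but its TA value was 0.16 on log2(FPKM + 1). Rbm20, the splicing regulator of titin, was -1.04 in TA and -0.40 in quadriceps, Alas1, of haem synthesis, -1.05 and -0.55, and Inha, the inhibin alpha subunit, -2.56 and -0.90. Parm1 fell less in TA (-0.53) than in quadriceps (-1.13). A930003A15Rik rose more in TA (4.67) than in quadriceps (2.80), and Gm14029 less (1.10 and 2.96). All 10 differences had an adjusted p of at most 3.89e-04.

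**Figure D5:**
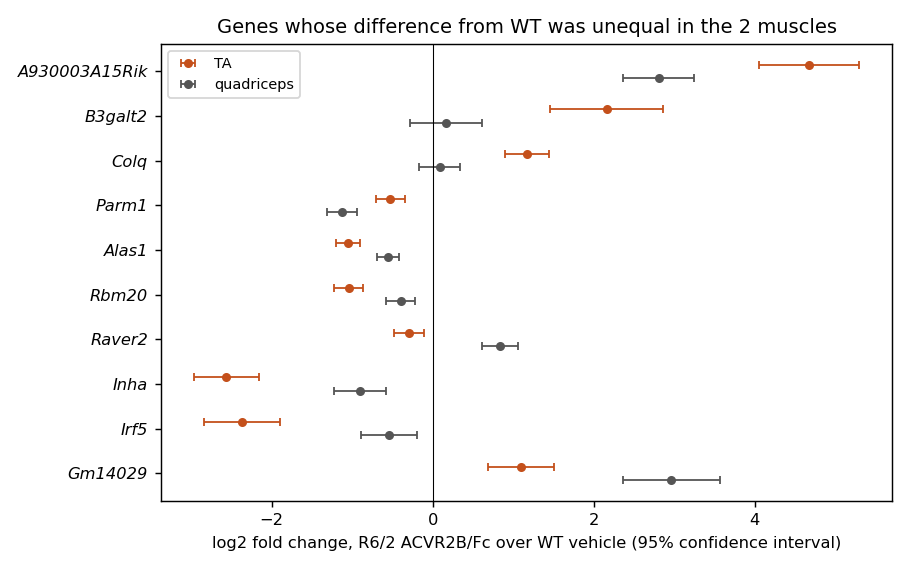
Log2 fold change of treated R6/2 over WT vehicle (horizontal axis) with its 95% confidence interval in TA (orange) and quadriceps (grey) for the 10 genes with the smallest p in the test of the difference between muscles. Colq and B3galt2 lie near 0 in quadriceps, at 0.09 and 0.17, and above 1 in TA, and Gm14029 is the gene with the larger rise in quadriceps (2.96).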

How the data were processed

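Total RNA of flash-frozen muscle was made into mRNA libraries and sequenced, and the submitters' processing notes name CASAVA 1.8.2. Per the study's methods, reads were aligned with the OSA aligner to mouse genome B38 and quantified against Ensembl gene models. The authors deposited estimated counts and FPKM for each gene and library. Of the estimated counts above 0, 29.4% were not whole, so they were rounded. A gene was tested if 10 or more of the 79 libraries held 2 counts or more (19702 of 39179).

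The main test was the edgeR 4.0.16 quasi-likelihood test (R 4.3.3) with TMM factors on the 4 groups of TA libraries together, so that all 40 libraries shared the estimate of the spread. P-values were adjusted by Benjamini-Hochberg over all tested genes, and 0.05 was the threshold. The difference between muscles used the mouse as a block. One quadriceps library of a WT vehicle mouse was left out, as in the study. FPKM were tested with limma 3.58.1 on log2(FPKM + 1). Counts with DESeq2 1.42.0 and other factors, filters, covariates and groups were alternatives, and the fit of FPKM with TMM factors was chosen after seeing the data. The tables held 0 columns of another series. Scripts were tested on simulated data. Counting intervals are exact, at 95%, and cover counting error only. Among the TA libraries of treated R6/2, R6/2 vehicle and WT vehicle none was a copy of another (highest correlation 0.9949). The other libraries were not checked in this way.

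The members, gene lists and marker lists were chosen with earlier results of these data known. Genes were named by rule: the 12 highest and 12 lowest log2 fold changes among called genes of at least 1 CPM in a group, up to 5 genes of smallest p in each list, the 10 smallest treatment p-values in each class moved by treatment, the 10 smallest p-values between muscles, and Gm12695, Htt, Mstn, Acvr2b, Fst and Pax7. Not every gene that meets the rule is printed, some are not reported here, and genes outside it are marked as named after their values were seen. Coordinates are from GENCODE M21 on GRCm38 and promoters from RefSeq GRCm38.p6. A library was said to hold transcripts of another tissue where its summed markers of that tissue reached 10 CPM and 10 times the median.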

Additional observations from a re-analysis of the deposited data

Results flagged for a closer look

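A library stood apart from the other 9 of its group, by Dixon's criterion for 10 samples, in 37 of the 330 groups of CPM values that were checked for the genes named in the text. Chance alone gives about 1 in 20 groups. Prl had 25.3 CPM in 1 treated R6/2 TA library (next 0.130) and 484 CPM in 1 WT vehicle TA library (next 17.7), both with pituitary transcripts. Tchh had 16.3 CPM in the treated R6/2 library with hair and skin transcripts (next 0.606) and 0.212 CPM in a WT vehicle library (next 0.0869). Gm20659 had 17.0 CPM in treated R6/2 replicate 10 (next 4.25). The highest treated R6/2 TA library also stood apart for Chrna1 (69.9 CPM, next 50.9), Chrng (0.378 CPM, next 0.167), Epop (1.56 CPM, next 1.11), Fgfbp1 (0.126 CPM, next 0.0650), Gbp2 (17.9 CPM, next 12.2), Gdnf (0.542 CPM, next 0.299), Irf1 (12.0 CPM, next 9.18), Irf5 (5.16 CPM, next 3.54), Myh4 (15545 CPM, next 13522), Siglech (0.149 CPM, next 0.0661), Sspn (118 CPM, next 103) and Zcchc24 (156 CPM, next 137). In treated R6/2 TA the lowest library stood apart for Acvr2b (0.944 CPM, next 1.90), Etv5 (8.91 CPM, next 10.6) and Fxyd6 (31.7 CPM, next 41.8). In WT vehicle TA the highest library stood apart for Alas1 (140.1 CPM, next 105.41), Casq1 (3079.7 CPM, next 2735), Cmpk2 (3.72 CPM, next 2.70), Gm12695 (0.0264 CPM, next 0), Gm830 (0.317 CPM, next 0.132), Gys1 (619.9 CPM, next 467), Ifit1 (4.83 CPM, next 2.97), Lrp4 (20.6 CPM, next 17.4), Muc15 (0.179 CPM, next 0.0902), Ndufs8 (108.03 CPM, next 86.4), Nr4a2 (11.4 CPM, next 5.49), Parm1 (74.3 CPM, next 62.0), Pvalb (9438 CPM, next 7919), Sdhb (520.5 CPM, next 439) and Wfikkn2 (14.4 CPM, next 13.0). The lowest WT vehicle TA library stood apart for Mstn (47.1 CPM, next 63.2) and Pax7 (1.66 CPM, next 2.67).

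The log2 fold change of treated R6/2 against WT differed between TA and quadriceps in a direct test. As TA minus quadriceps it was -1.86 for Irf5, -1.87 for Gm14029, -0.67 for Rbm20, 1.03 for Colq, 1.91 for B3galt2, -1.14 for Raver2, -1.66 for Inha, 1.94 for A930003A15Rik, -0.51 for Alas1 and 0.59 for Parm1, with adjusted p-values of 1.26e-05 to 3.89e-04 (edgeR, Benjamini-Hochberg).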

How the results depend on the processing

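The count of 8132 genes called in treated R6/2 TA against WT vehicle TA stayed within 1.5 times of that value under every alternative except a required fold of 1.5 (3514), and this count and the others of each comparison and class stayed within that bound without the mixed libraries. Of the counts of list members called, 63 also stayed so, 11 moved by over 1.5 times, 3 fell to 0 and 3 changed to 1 where they had been 0. With that required fold there were also 3276 genes for R6/2 vehicle against WT, 157 between treated and untreated R6/2 TA, 117 between muscles, 2436 with the same sign in both, 63 that became different, 48 moved back and 23 moved further. DESeq2 gave 741 genes between treated and untreated R6/2 TA, 718 between muscles, 298 moved back and 166 moved further. With all 79 libraries 262 genes moved back, and with the lane and the lower or upper range of library numbers as covariates 57 moved further. On log2(FPKM + 1) there were 11755 genes for R6/2 vehicle against WT, 983 between treated and untreated, 571 between muscles, 10350 with the same sign in both, 663 moved back and 154 moved further, and on log2(FPKM + 0.1) 11951, 340 moved back and 10484 with the same sign in both. The muscle difference gave 466 genes at 1 CPM or more and 34 without the mouse block.

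Of the genes named, 39 changed direction or call under at least 1 alternative. Genes took the other sign on log2(FPKM + 1) and log2(FPKM + 0.1): Atp8a1 (0.413 and 0.437), Ccng1 (0.418 and 0.419), Erbb3 (0.121 and 0.197), Etv5 (0.208 and 0.268), Fxyd6 (0.13 and 0.134), Gys1 (0.1 and 0.101), Ltbp3 (0.405 and 0.472), Raver2 (0.16 and 0.206) and Sspn (0.245 and 0.254), and Wfikkn2 on the first (0.004). The cause was not tested.

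The same replicate numbers across groups did not pair the samples. Deviations of same-numbered TA libraries had a mean correlation of 0.0751 over 10 pairs (-0.192 to 0.6), against -0.00498 for different numbers. With the replicate block 7917 genes were called against WT, 353 between treated and untreated R6/2 TA, 6201 with the same sign in both, 126 became different and 81 moved further. Low counts limit what can be said of genes under 1 CPM, such as those of cell division.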
